A study of Mus musculus with 30 samples.

Results

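Non-neural aggregate cells were compared with the mouse embryonic stem (ES) cells they came from, to show what the aggregate culture changed before or without neural conversion. The line, Sox1-GFP, was derived from the 129 strain and carries green fluorescent protein as a reporter of Sox1, a gene of early neuroectoderm. ES cells were dissociated and reaggregated in a medium with knockout serum replacement (the SFEB culture), and the shared protocol takes RNA from populations sorted by flow cytometry, although the day 1 label names no sorted marker. The comparison took 6 of the 10 samples of the series: 3 of aggregates, pooled as 1 group, against 3 of ES cells. The aggregate samples were day 1 aggregates, day 2 cells sorted as E-cadherin-positive and day 3 cells sorted as Sox1-negative, 1 sample each. The ES samples (ES 1, ES 2 and ES 3) were undifferentiated cells sorted as E-cadherin-positive. RNA of each sample was measured on 3 Affymetrix chips (U74Av2, U74Bv2 and U74Cv2), or 9 arrays a group. All groups carried the Sox1-GFP allele, and they came from 1 line. The labels cite a published protocol for the maintenance of the ES cells and do not list its factors.

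ES cells of the mouse are held in a naive state in which leukaemia inhibitory factor (LIF) acts through its receptor and the transcription factor STAT3. STAT3 raises a group of naive factors, among them Klf4, Klf5 and Tfcp2l1, and its own inhibitor Socs3. When naive cells leave this state they pass through a primed state like the epiblast of the embryo, in which Oct4 and Sox2 stay on while genes such as Fgf5, Otx2 and Dnmt3b come up. Nodal, a ligand of the TGF-beta family, and its secreted inhibitors Lefty1 and Lefty2 are made in both states.

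Signals were linear intensities, with array medians from 176 to 262 in the 6 samples. The number of arrays limits the precision. Nothing in the labels says that samples came from separate cultures, so p-values measure only the spread between these samples. In the aggregate group that spread also holds day and sort. A value after ± is an SD for intensities and a standard error for log2 differences (aggregate minus ES), and a value in brackets after a log2 difference is its limma adjusted p. The 3' to 5' ratio of the actin control, a measure of RNA quality, was highest in ES 3 on all 3 chips, at 1.64 to 1.85 against 0.939 to 1.25 in the other 5 samples. In bulk samples fewer cells of a type and less RNA per cell cannot be told apart.

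The labels were set against the genes behind the sorts. Cdh1 (probe set 98140_at), the gene of E-cadherin, had intensities of 722, 557 and 451 in ES 1 to ES 3, and 534, 572 and 593 in the day 1, day 2 and day 3 aggregate samples. The groups overlapped, with a log2 difference of -0.00091 (limma adjusted p 0.999). The day 2 cells sorted as E-cadherin-negative, which are in neither group, had 565, next to 572 in the E-cadherin-positive cells of that day, so the Cdh1 signal does not bear out that sort and is no check of the label. Sox1 (92342_at) had 173, 156 and 138 in ES cells and 152, 253 and 241 in the aggregate samples, a log2 difference of 0.40 (0.624). In the Sox1-positive cells of days 3, 4 and 5 it had 308, 310 and 252, so that the day 2 aggregate sample lay within their range. The summed intensity of 35 neural progenitor genes lay far higher in Sox1-positive cells than in both groups compared here, which it did not separate. It was 30032 to 46156 in ES cells, 39755 to 42034 in the aggregate samples and 126809 to 150255 in Sox1-positive cells.

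Few probe sets passed the test between aggregate and ES cells. Limma called 15 of 25690 (0.0584%) at an adjusted p under 0.05, 12 lower (0.0467%) and 3 higher (0.0117%) in the aggregate samples. In all, 2346 probe sets had an unadjusted p under 0.05. With 1 probe set a gene, the one with the highest mean signal, 5 of 12941 genes were called (0.0386%): Mras, Irak3, Alpk3 and Klf5 fell and Nnat rose. The count of called probe sets rested on single samples. It was 58 without ES 1, 5 without ES 2, 8 without ES 3, 6 without day 1, 4 without day 2 and 4 without day 3.

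The strongest call was Bcl3 (102239_at), whose product is an atypical member of the I-kappa-B family that acts as a cofactor of NF-kappa-B. Its intensity was 1054, 1105 and 1089 in ES 1 to ES 3 and 89.4, 88.4 and 77.7 in the day 1, day 2 and day 3 samples. It fell from 1083 ± 26.3 (SD, n = 3) to 85.2 ± 6.53 (n = 3), or by -3.44 ± 0.17 (SE) on the log2 scale (limma adjusted p 0.000227). The aggregate samples lay far below every ES sample and close to each other, so the loss was in place on day 1. The second Bcl3 probe set (105489_at), which has the higher mean signal and stands for the gene in the counts per gene, had -0.71 and did not pass (0.359).

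Mras, a small GTPase of the Ras family, fell in 2 of its 3 probe sets. On 164306_f_at it had 944, 1329 and 1408 in ES cells and 72.9, 51.4 and 55.0 in the aggregate samples. The fall was from 1227 ± 249 to 59.8 ± 11.5, or -4.03 ± 0.22 on the log2 scale (limma adjusted p 0.00108). On 103653_at it fell from 369 ± 75.7 to 47.0 ± 32.4, a log2 change of -2.71 (0.0421), and the third probe set (135694_at) had -0.35 (0.749). The day 1 sample was the highest of the aggregate samples on both called probe sets. The suffix _f_at marks a probe set that may also bind related transcripts, and the second call rested on a probe set without it.

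Irak3, an inhibitory member of the kinase family downstream of Toll-like receptors, had 1266, 2060 and 1831 in ES cells and 265, 217 and 162 in the aggregate samples (163494_at). It fell by 2.91 ± 0.26 on the log2 scale with a limma adjusted p of 0.0163, and the groups were far apart. Alpk3, which encodes a protein of the alpha-kinase family, had 319, 279 and 335 in ES cells against 57.3, 36.8 and 58.2 (114556_at). It fell by 2.31 ± 0.21 (0.0163). Mapt, the gene of the microtubule-associated protein tau, fell on 102431_at from 274 ± 27.2 to 42.7 ± 7.20, a log2 change of -2.31 (0.00403). Its 4 other tested probe sets did not pass, with log2 differences from -0.68 to 0.17, so that the probe sets of Mapt disagree.

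Klf5 (97937_at), a Krüppel-like transcription factor, was the called gene of the naive list. It had 1684, 1824 and 2125 in ES cells and 644, 592 and 738 in the aggregate samples. It fell from 1878 ± 225 to 658 ± 74.3, or by -1.49 ± 0.19 on the log2 scale (limma adjusted p 0.0425). Rasgrp2, an exchange factor for the GTPase Rap1, fell on 103282_at from 866 ± 83.8 to 314 ± 11.3, a log2 change of -1.42 (0.0421). A second Rasgrp2 probe set (117245_s_at) had -1.26 (0.259) and the last (138030_at) 0.02 (0.993). The other 4 called falls were of probe sets that are not named here: 165166_f_at (-3.73, adjusted p 0.00108), 165104_f_at (-2.73, 0.0163), 100914_at (-1.97, 0.0163) and 97519_at (-1.89, 0.0266).

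The 3 called rises were of Igfbp4, Nnat and Capn3, all from low signals in ES cells. Igfbp4 (101571_g_at), an insulin-like growth factor binding protein, had 49.2, 39.5 and 48.9 in ES cells and 309, 195 and 182 in the aggregate samples. It rose by 1.95 ± 0.23 on the log2 scale with a limma adjusted p of 0.0353, while its other tested probe set (94222_at) had 0.42 (0.663). Nnat (97520_s_at), the imprinted gene neuronatin, had 146, 178 and 122 in ES cells and 666, 437 and 583 in the aggregate samples, a rise of 1.80 ± 0.22 (0.0421). Capn3 (99812_at), a calcium-dependent protease, had 69.1, 74.8 and 69.7 against 199, 228 and 198, a rise of 1.36 ± 0.17 (0.0425). Its second tested probe set (103272_at) had 0.37 (0.601). Probe sets were tested if their mean over the 10 samples reached a filter, 78.6 on this chip. Capn3 reached it only through the aggregate samples, since every other sample was below 78.6, so its call is not independent of the filter. Igfbp4 was below the filter in ES cells and reached it through the groups where it is high. Without the filter 0 probe sets were called higher. Igfbp4 and Nnat were higher still in Sox1-positive cells (722 ± 178 and 3975 ± 1286), and Capn3 was lower there (27.8 ± 13.6). Whether a share of cells on the way to Sox1 adds to the first 2 rises was not tested.

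**Figure D1:**
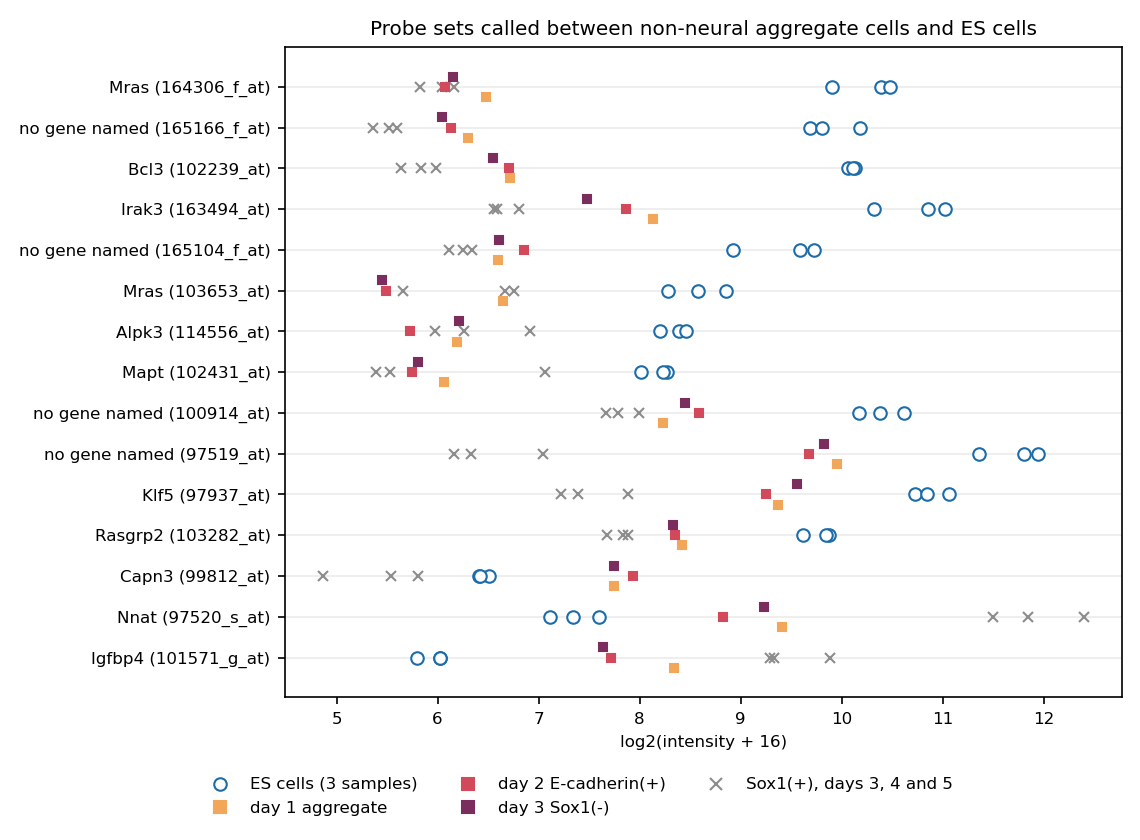
Signal, as log2 of the intensity plus 16, of the 15 probe sets called between aggregate and ES cells, with 1 point for each sample: open circles for the 3 ES samples, squares for the 3 aggregate samples (offset vertically so that all can be seen) and grey crosses for the 3 Sox1-positive samples, which were not used in the calls. In every row the 3 squares lie outside the range of the circles; for 12 probe sets they lie below it and for Igfbp4, Nnat and Capn3 above.

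The calls of Bcl3 (102239_at), Mras (164306_f_at), Mapt (102431_at) and 165166_f_at held under each alternative that tested them. Each of the other 11 lost its call in 5 to 11 of the alternatives, most often when 1 sample was left out, and the direction stayed.

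Over all genes, the distances of the aggregate samples from ES cells overlapped with those between the ES samples through 1 pair of ES samples only. Between 2 ES samples, 677 to 1331 genes differed by 1 or more on the log2 scale (5.23% to 10.3%). Between 2 aggregate samples, of different days and sorts, 878 to 1084 genes did (6.78% to 8.38%). Between an aggregate and an ES sample the number was 972 to 1405, with a median of 1168 (9.03%) over the 9 pairs. The pair of ES 1 and ES 3, with 1331 genes, was farther apart than 7 of those 9 pairs. The pairs of ES 2 and ES 3, with 677, and of ES 1 and ES 2, with 953, were closer than any of the 9. The overlap thus rests on the pair of ES 1 and ES 3.

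**Figure D2:**
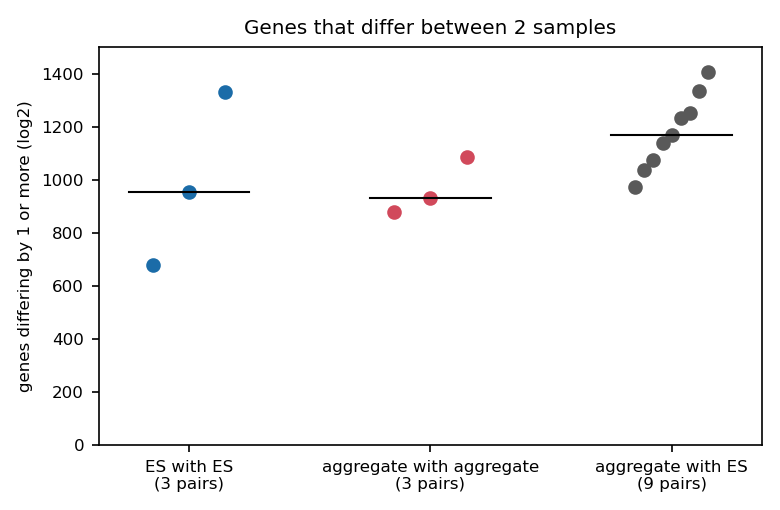
Number of genes, of 12941 tested, that differ by 1 or more on the log2 scale between 2 samples, for the 3 pairs of ES samples, the 3 pairs of aggregate samples and the 9 mixed pairs; each point is a pair and each line the median. The mixed pairs reach from 972 to 1405 and overlap with the pairs of ES samples (677 to 1331) only through the pair of ES 1 and ES 3.

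The genes that lay outside the ES range in every aggregate sample were a small group. A gene was counted when its signal was at least 1 log2 unit above the highest or below the lowest ES sample. Above the range there were 10 such genes in all 3 aggregate samples, 44 in 2 and 192 in 1 alone. Below it there were 19 in all 3, 73 in 2 and 335 in 1 alone. The 19 come from 12941 genes tested, and 5 of them belong to the naive ES network, with 24 genes tested: Tbx3, Klf4, Esrrb, Klf5 and Tfcp2l1. That list was written with earlier results of these data known, and its share was not tested. The day 2 sample had the most genes below the range (217, against 141 on day 1 and 180 on day 3), and day 1 the fewest above it (72, against 117 and 121).

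A weaker measure, used below for groups of genes, is that the 3 aggregate samples all lie above or all below the 3 ES samples. This held for 956 of 12941 genes above (7.39%) and 1000 below (7.73%), or 15.1% in all, and the median log2 difference over all genes was 0.0012. At an unadjusted p under 0.05 limma had 564 genes higher (4.36%) and 582 lower (4.5%). The shares in each list are read against these.

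No core pluripotency gene passed the test. Of 11 genes tested, 0 were called, 1 had all aggregate samples below ES cells and 0 above, with a median log2 difference of -0.02 and 0 genes at an unadjusted p under 0.05 in limma. Pou5f1 (103075_at), the gene of Oct4, had 7572, 8778 and 6836 in ES cells and 6783, 11905 and 7075 in the aggregate samples. Its log2 difference was 0.11 ± 0.25 (limma adjusted p 0.922), and the day 2 sample was the highest of the 6. A second, much dimmer Pou5f1 probe set (170285_at) had 543, 672 and 736 in ES cells and 527, 389 and 469 in the aggregate samples, with every aggregate sample below every ES sample, -0.48 (0.615). Nanog (161072_at) had 10940, 5465 and 6292 against 6218, 6429 and 6849, a log2 difference of -0.15 ± 0.26 (0.889), with ES 1 the highest. A second, much dimmer Nanog probe set (161653_f_at) had 628, 559 and 568 in ES cells and 471, 227 and 337 in the aggregate samples, -0.79 (0.41). Sox2 and Utf1 both had -0.02 (0.981 and 0.987). For Pou5f1 and Nanog the probe sets disagree and the sign turned under some alternatives, so no direction is given.

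In the naive network, Klf5 fell and the other genes did not pass the test. Of 24 genes tested, 1 was called (Klf5), 7 had every aggregate sample below every ES sample (29.2%) and 1 had every one above (4.17%), and the median log2 difference was -0.34. Esrrb (168508_at), an orphan nuclear receptor, had 12861, 10661 and 16886 in ES cells and 3996, 4243 and 5190 in the aggregate samples. Its log2 difference of -1.57 ± 0.27 did not pass (limma adjusted p 0.158), although every aggregate value lay below every ES value. Its second, dim probe set (100301_at) had a smaller log2 difference, -0.72 (0.517), also without overlap. Klf4 (99622_at) had 3339, 1854 and 2290 in ES cells against 423, 787 and 784, a log2 difference of -1.89 (0.0948), with day 1 the lowest. Tfcp2l1 (103761_at) had 1250, 1261 and 1683 against 601, 464 and 523, a log2 difference of -1.37 (0.0726), and its dim second probe set (97193_at) had -0.08 (0.966).

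Tbx3 (166427_f_at), a T-box factor, had 1105, 1107 and 1694 in ES cells against 367, 161 and 362, a log2 difference of -2.13 (0.173). Its other probe set (103538_at) had -1.23 (0.21). The F-box gene Fbxo15 had -0.94 (0.258) and Tcl1, a coactivator of the kinase Akt, -0.66 (0.462). Members with differences above 0 were also found: Nr0b1 had 0.10 (0.921), Klf2 0.49 (0.647) and Dppa5a 0.55 (0.438). Klf2 and Nr0b1 had overlapping groups and Dppa5a was above ES cells in every aggregate sample. Zfp42, the classical naive marker Rex1, had 3835 on day 1, within the ES range of 3049 to 4338, and 1655 and 1440 in the day 2 and day 3 samples.

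The LIF and STAT3 list had the largest share of genes below ES cells among the 38 lists. In 8 of its 14 genes (57.1%) all aggregate samples lay below all ES samples, in 0 above, and the median log2 difference was -0.46. No gene of the list was called on its brightest probe set, and 7 were lower at an unadjusted p under 0.05 in limma, but the called Bcl3 probe set belongs to a member. Klf4 and Tfcp2l1 are in this list too. The receptor gene Lifr (103697_at) had 446, 440 and 411 in ES cells and 303, 157 and 176 in the aggregate samples, a log2 difference of -1.03 ± 0.25 (limma adjusted p 0.272). Its 2 dim probe sets (104657_at and 104658_at) had 0.03 (0.977) and -0.35 (0.655). Il6st, which encodes the co-receptor gp130, had -0.17 (0.915), Jak1 -0.17 (0.889) and Stat3 -0.37 (0.606).

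Socs3, the feedback inhibitor of the pathway, was lower on each of its 3 probe sets. On 162206_f_at it had 646, 825 and 1480 in ES cells and 200, 406 and 174 in the aggregate samples, a log2 difference of -1.86 ± 0.37 (limma adjusted p 0.163). The others had -1.56 (111736_at, 0.251) and -2.61 (92232_at, 0.289). The kinase genes Pim3 and Pim1 had -0.71 (0.43) and -0.54 (0.433). For Ier3 and Junb the day 1 sample was below ES cells and the later samples were not. STAT3 binds sites of the form TTCNNNGAA, which reads the same on both strands. Of the 14 genes, 1 has such a match in the 250 bases before its start, Socs3, a share near the 7.02% of 32851 RefSeq promoters. The stretch is shown because Socs3 is the gene of the list with a match (RefSeq, GRCm38.p6, chr11:117969367-117969616, minus strand, 5' to 3'). The match, 154 bases before the start, is in capitals, and whether STAT3 acts through it was not tested.
Socs3: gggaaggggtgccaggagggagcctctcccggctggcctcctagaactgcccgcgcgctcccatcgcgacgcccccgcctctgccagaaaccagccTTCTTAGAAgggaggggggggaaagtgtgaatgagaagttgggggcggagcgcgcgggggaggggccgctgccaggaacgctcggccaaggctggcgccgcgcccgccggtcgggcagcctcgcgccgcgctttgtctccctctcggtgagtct

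**Figure D3:**
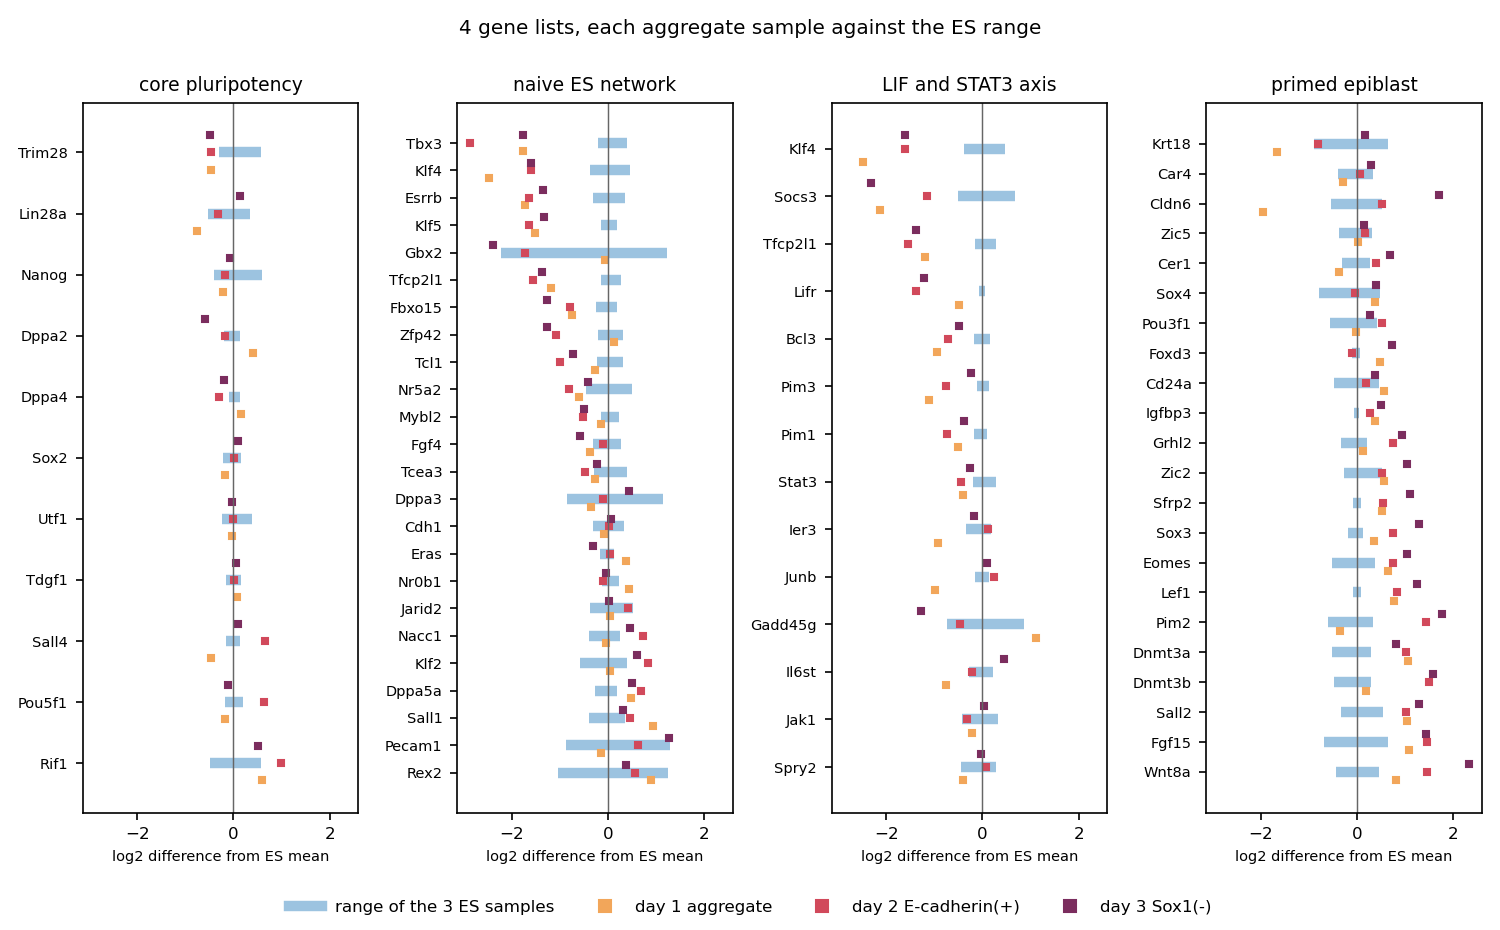
Log2 difference of each aggregate sample from the mean of the 3 ES samples for the genes of 4 lists, sorted by their mean difference; pale bars give the range of the 3 ES samples and squares the day 1, day 2 and day 3 samples. The core pluripotency genes have a median of -0.02, the upper rows of the naive and LIF lists lie to the left of the ES range, and the lower rows of the primed epiblast list lie to its right.

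The primed epiblast list went the other way. Of 22 genes tested, 10 had all aggregate samples above all ES samples (45.5%) and 0 below, with a median log2 difference of 0.66. Limma called 0 of them, and 10 were higher at an unadjusted p under 0.05. In the other 12 genes the groups overlapped. The members described here and in the next paragraph were picked knowing their signals, and all were higher on average in the aggregate samples. They do not stand for the whole list. Values of Fgf5 and Otx2 are not given, so no rise of these genes is claimed. The DNA methyltransferase gene Dnmt3b (164028_at) had 1804, 3075 and 2841 in ES cells, 2857 on day 1 and 7129 and 7483 in the day 2 and day 3 samples, a log2 difference of 1.09 ± 0.40 (limma adjusted p 0.473). Only its day 1 sample lay within the ES range. Dnmt3a (166504_r_at) had 800, 1354 and 1420 against 2442, 2363 and 2025, 0.97 (0.418), with no overlap.

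Lef1, a transcription factor of the Wnt pathway, had 1638, 1729 and 1559 in ES cells and 2796, 2936 and 3896 in the aggregate samples, a log2 difference of 0.95 ± 0.20 (0.223). The zinc finger gene Sall2 had 1.12 (0.283), the growth factor gene Fgf15 1.32 (0.272) and the ligand gene Wnt8a 1.53 (0.283), all 3 without overlap. Sox3, shared by epiblast and neural cells, had 893, 1192 and 1742 on days 1, 2 and 3 against 611 to 764 in ES cells, and 3621 to 4838 in Sox1-positive cells. The median of the list was 0.38 in the day 1, 0.53 in the day 2 and 0.99 in the day 3 sample. Whether more primed cells or a higher level per cell gave these values was not tested.

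Among 15 nodal pathway genes, the secreted inhibitors stood out from the receptors and Smads. Lefty1 had 10869, 11287 and 18113 in ES cells and 42663, 49194 and 36908 in the aggregate samples on its brightest probe set (166173_f_at), a log2 difference of 1.71 ± 0.29 (limma adjusted p 0.156). On 102345_at it had 1499, 1665 and 2667 against 6203, 9057 and 5779, 1.86 (0.0714). On both the groups lay apart. They also lay apart on the dim 162480_f_at, with 0.59 (0.498), and overlapped on 169904_r_at, with 0.25 (0.842). Lefty2 (134566_at) had 609, 627 and 913 against 1845, 1484 and 1872, a log2 difference of 1.27 ± 0.27 (0.262).

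Nodal itself (99801_at) had 918, 788 and 700 in ES cells and 1587, 891 and 1183 in the aggregate samples, 0.57 (0.534), and the day 2 sample lay in the ES range. Foxh1, the partner of Smad proteins in nodal signalling, had 0.56 (0.438) without overlap. The receptors Acvr1b, Acvr2a and Acvr2b had -0.26, 0.05 and -0.08, the co-receptor Tdgf1 0.05, and Smad2 and Smad3 -0.03 and -0.27 (limma adjusted p 0.692 to 0.976). The list as a whole had 3 genes above (20%) and 0 below without overlap and a median log2 difference of 0.03. Limma called 0, with 4 higher at an unadjusted p under 0.05.

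Of 18 Wnt pathway genes, 7 lay above ES cells in every aggregate sample (38.9%) and 1 below, with 0 called in limma, 5 higher and 1 lower at an unadjusted p under 0.05, and a median of 0.22. Axin2, a negative regulator and a common target of the pathway, had 537, 346 and 356 in ES cells and 625, 673 and 899 in the aggregate samples, a log2 difference of 0.81 ± 0.24 (limma adjusted p 0.397). The receptor Fzd7 had 0.87 (0.333), and Lef1 and Wnt8a are given above. The receptor Fzd5 went against them, with 1867, 1626 and 2005 in ES cells against 739, 836 and 1010, a log2 difference of -1.08 ± 0.20 (0.156).

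The metallothionein genes Mt1 and Mt2, whose small proteins bind zinc and copper, had higher signals in every aggregate sample but were not called. Mt1 (93573_at) had 1585, 1369 and 786 in ES cells and 3176, 5997 and 6989 in the aggregate samples, a log2 difference of 2.08 ± 0.35 (limma adjusted p 0.118). The other Mt1 probe set (164402_r_at) had 0.48 (0.55). Mt2 (101561_at) had 5255, 6540 and 4496 against 9638, 13310 and 9910, a log2 difference of 1.01 ± 0.22 (0.213). The remaining genes of the metallothionein and oxidative stress list were mixed, with Sod2, the mitochondrial superoxide dismutase, at -0.88 (0.285). Of the 15 genes of the list, 4 lay above (26.7%) and 1 below (6.67%).

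The factor that raises metallothioneins in response to zinc binds metal response elements, whose core was searched for as TGCACNC or TGCGCNC on both strands in the 250 bases before the start. Such a match is common, in 21.4% of 32851 RefSeq promoters, while 3 or more stand in 1.26%. The promoters are shown because they carry these elements, Mt1 with 1 match and Mt2 with 3 (RefSeq, GRCm38.p6, plus strand, 5' to 3', chr8:94178839-94179088 and chr8:94172368-94172617); matches are in capitals and may lie on either strand.
Mt1: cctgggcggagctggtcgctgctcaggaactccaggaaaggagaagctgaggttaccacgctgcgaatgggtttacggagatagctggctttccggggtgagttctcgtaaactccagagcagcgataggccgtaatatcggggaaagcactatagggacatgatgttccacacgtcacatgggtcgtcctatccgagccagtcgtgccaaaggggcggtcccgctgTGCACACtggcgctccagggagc
Mt2: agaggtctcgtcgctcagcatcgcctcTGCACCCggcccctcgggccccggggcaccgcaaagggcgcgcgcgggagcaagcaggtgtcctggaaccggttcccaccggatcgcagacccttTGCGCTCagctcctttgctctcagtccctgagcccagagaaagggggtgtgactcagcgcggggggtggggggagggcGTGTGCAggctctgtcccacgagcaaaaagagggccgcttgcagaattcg

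No gene of the lists for sugar use and for the response to low oxygen was called, and the list medians were higher in the day 2 and day 3 samples than in the day 1 sample. Slc16a3 (112405_at), which exports lactate, had 1484, 827 and 1147 in ES cells and 2779, 5028 and 4314 in the aggregate samples, a log2 difference of 1.79 ± 0.30 (limma adjusted p 0.124). Pgk1, a glycolytic kinase, had 3102, 2419 and 3316 against 3743, 6562 and 6898, 0.92 (0.363). Neither gene had overlapping groups. Of 21 genes of glycolysis and glucose uptake, 5 lay above (23.8%) and 0 below, and the median log2 difference was -0.04 in the day 1 sample, 0.40 on day 2 and 0.62 on day 3. The first enzyme of the path, Hk2, had 649 on day 1 against 1523 to 1787 in ES cells.

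Of 19 hypoxia response genes, 5 lay above (26.3%) and 1 below, with medians of 0.11, 0.63 and 0.63 in the day 1, day 2 and day 3 samples. Ddit4, a stress-induced inhibitor of mTOR, had 397, 508 and 519 in ES cells and 972, 1080 and 886 in the aggregate samples, a log2 difference of 1.03 ± 0.19 (limma adjusted p 0.134). Car9, a carbonic anhydrase, had 0.90 (0.468), and the oxygen sensor Egln1 0.75 (0.406). Limma called 0 genes of either list, with 4 and 6 higher at an unadjusted p under 0.05. The lists share Pdk1, an inhibitor of pyruvate dehydrogenase, at 0.39 (0.606).

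Immediate early genes, which react within minutes to handling and growth factors, split the aggregate samples. Fos (160901_at) had 712, 389 and 545 in ES cells, 234 on day 1, 4397 on day 2 and 1964 on day 3. Fosb (103990_at) had 451, 310 and 386 in ES cells, 344 on day 1 and 1299 and 1125 in the later samples. The day 2 and day 3 samples were sorted for a marker and the day 1 sample has no sort label. Day and sort thus cannot be told apart among the aggregate samples. The ES samples, with Fos at 389 to 712, were sorted too, as E-cadherin-positive. Whether sorting changed these genes was not tested. The list of 19 had 1 gene above (Btg2, 0.56, adjusted p 0.468) and 0 below without overlap, with list medians of -0.25, 0.42 and 0.50 in the day 1, day 2 and day 3 samples.

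**Figure D4:**
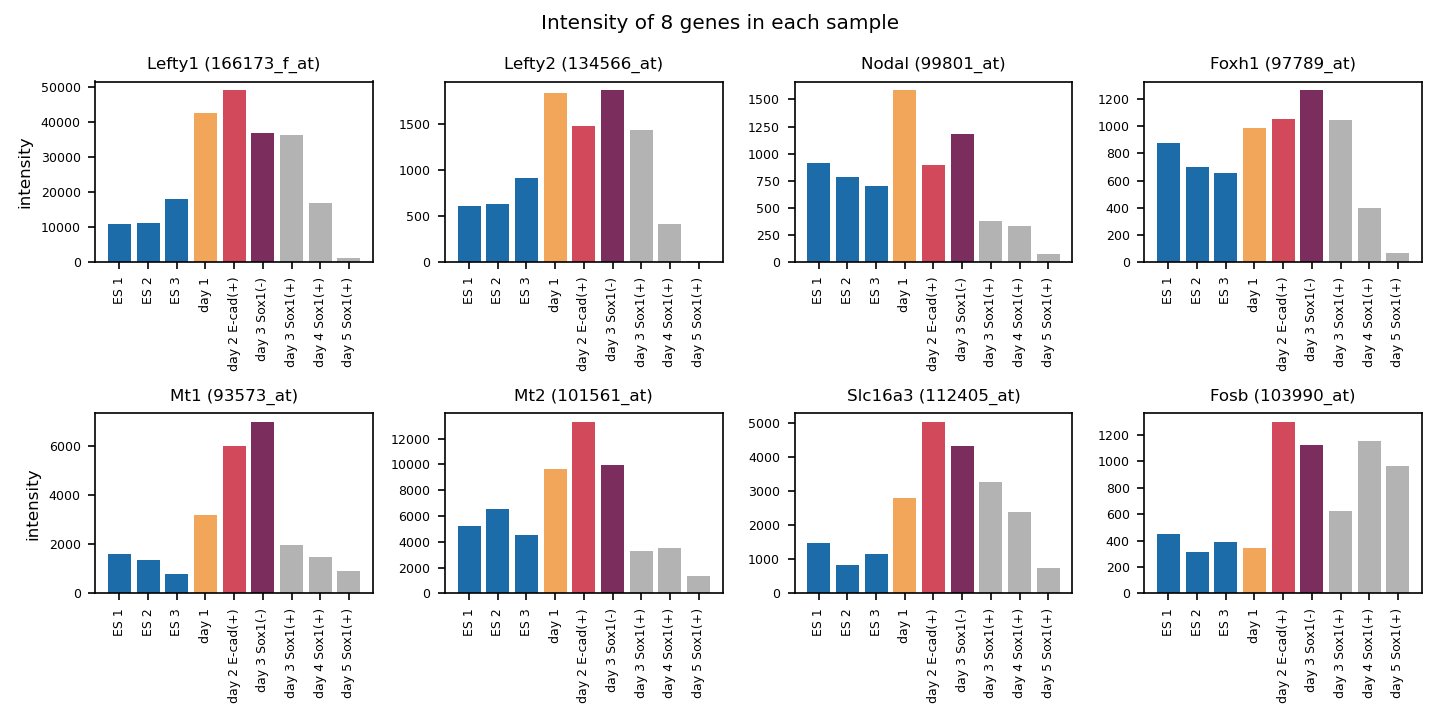
Linear intensity of 8 genes in each sample, in blue for the 3 ES samples, in colour for the 3 aggregate samples and in grey for the 3 Sox1-positive samples; each bar is 1 sample and each axis starts at 0. Lefty1, Lefty2, Foxh1, Mt1, Mt2 and Slc16a3 are above every ES sample in all 3 aggregate samples, while Nodal and Fosb are not.

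Some genes that ES cells share with the germ line had lower signals. Of 12 germ cell and two-cell-like genes, 5 lay below ES cells in all aggregate samples (41.7%) and 1 above, with 0 called in limma, 4 lower and 1 higher at an unadjusted p under 0.05, and a median of -0.33. Tfap2c (92275_at), an AP-2 transcription factor, had 2275, 1576 and 1755 in ES cells and 651, 837 and 913 in the aggregate samples, a log2 difference of -1.20 ± 0.22 (limma adjusted p 0.124). The X-linked homeobox genes Rhox9 and Rhox5 had -1.38 (0.286) and -0.91 (0.33), and Ifitm3, an interferon-induced membrane protein, -0.84 (0.407). Its neighbour in the family, Ifitm1, had 0.75 (0.41). The surface ectoderm list had 2 of 13 genes below (15.4%) and 0 above, and that of epithelial junctions 1 of 20 above and 2 below, with 0 called in limma in either, and 0 higher and 2 lower in the first and 2 and 2 in the second at an unadjusted p under 0.05. Grhl3, an epithelial transcription factor, had 5277, 4884 and 4685 against 2988, 1519 and 1559, -1.36 (0.309), while Grhl2 had 0.60 (0.552).

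Several basement membrane genes had lower signals as well. Of 18 genes of extracellular matrix and integrins, 6 lay below without overlap (33.3%) and 0 above, with a median log2 difference of -0.40. The laminin chain Lama1 (103729_at) had 428, 426 and 406 in ES cells and 156, 225 and 195 in the aggregate samples, a log2 difference of -1.08 ± 0.19 (limma adjusted p 0.124). Lamc1 had -0.74 (0.362), the perlecan gene Hspg2 -1.14 (0.359), the matrix glycoprotein gene Sparc -1.05 (0.4) and the integrin gene Itga3 -0.59 (0.428). No gene of the list was called, and 6 were lower at an unadjusted p under 0.05. Markers of fibroblasts and feeder cells, which also make matrix, had 0 of 9 genes without overlap. Their summed intensity was 3551 to 6462 in ES cells and 3174 to 5326 in the aggregate samples, and their part in the result was not tested.

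Beyond the called genes, the largest differences downward without overlap, at an unadjusted p under 0.01, were not called. Emp1, a tetraspan membrane protein, had 1097, 1200 and 1395 in ES cells and 546, 188 and 109 in the aggregate samples, a log2 difference of -2.35 ± 0.46 (limma adjusted p 0.156). Ahnak, a giant scaffold protein, had -2.35 (0.172), the calcium-binding protein gene S100a6 -2.17 (0.179) and the transglutaminase gene Tgm1 -2.57 (0.366). With its probe sets averaged, Ahnak had a smaller difference, -1.12 (0.467). For Tgm1, ES 1 had 78.6 against 553 and 571 in the others, so that its size rests on 2 ES samples. Only through these did it reach its chip's filter of 102, since every other sample was below that. Ddah1, which breaks down methylated arginine, came closest to a call, with 499, 542 and 681 against 107, 97.3 and 172, -2.09 ± 0.25 (0.052). The gap-junction gene Gjb5 was equally close, at -1.34 (0.052).

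The remaining differences downward named by size were the zinc transporter Slc30a2 (-2.24, adjusted p 0.373), Nkain4 (-2.22, 0.124), Adamtsl1 (-2.13, 0.179), the GATOR2 subunit Wdr24 (-2.03, 0.388) and the heparan sulfate sulfotransferase Hs3st3b1 (-2.02, 0.324), with Tbx3 given above. The last had 225 on day 1, 81.8 on day 2 and 30.5 on day 3 against 337 to 441 in ES cells.

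The largest differences upward that were not called began with 2900060B14Rik, which had 1999, 1149 and 638 in ES cells and 4177, 4876 and 6080 in the aggregate samples (166999_at, 2.12 ± 0.43, limma adjusted p 0.24). Of genes for surface and signalling proteins, the semaphorin Sema6a had 57.1, 154 and 70.4 against 406, 348 and 348 (1.90, 0.124), the paranodal protein gene Cntnap1 1.84 (0.123), the phospholipase Plch2 1.92 (0.157) and Ltbp1, which binds latent TGF-beta, 1.58 (0.188). Ccno, a member of the cyclin family, had 345, 216 and 116 in ES cells and 517, 805 and 819 in the aggregate samples (1.68, 0.266). In Sox1-positive cells Ccno was at 15.7 to 21.3, below both. The lipoxygenase Alox15 had 1.76 (0.134), the oocyte-secreted protein gene Oosp2 1.69 (0.172), the kinase Stk39 1.59 (0.32), Heatr3 2.04 (0.24) and Arhgap32 2.04 (0.385). Heatr3, Cntnap1, Ltbp1, Oosp2 and Alox15 were below their chip's filter in every ES sample and reached it through samples where they are high. In the last, the ES samples spread from 132 to 631.

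For the lists of the other germ layers, the shares over all genes to read against are 7.39% above and 7.73% below. Of 14 mesoderm and primitive streak genes tested, 2 lay above (14.3%) and 1 below (7.14%), with a median log2 difference of 0.17. Of 22 endoderm genes, 1 lay above (4.55%) and 3 below (13.6%), with a median of -0.01. Limma called 0 genes of either list. The 2 above in the mesoderm list were Eomes (0.82, limma adjusted p 0.405) and Kdr, a receptor of vascular endothelial growth factor. Kdr had 102, 78.4 and 66.0 in ES cells against 253, 227 and 292 (1.49, 0.156). Bmp4 was the one below (-0.56, 0.501). Of 35 neural progenitor genes 6 lay above (17.1%) and 1 below: besides Nnat and Sox3 these were Cdh2, Irx3, Msi2 and Pou3f2, at 0.51 to 0.70. Regional neural identity, fibroblast and ribosome genes had 0 of 12, 0 of 9 and 0 of 16 without overlap in either direction. Limma called 0 genes of those lists, and at an unadjusted p under 0.05 it had 0 higher and 0 lower, 0 and 2, and 0 and 0. The cell cycle list, with 30 genes, had 3 above (10%) and 5 below (16.7%) and a median of -0.13.

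**Figure D5:**
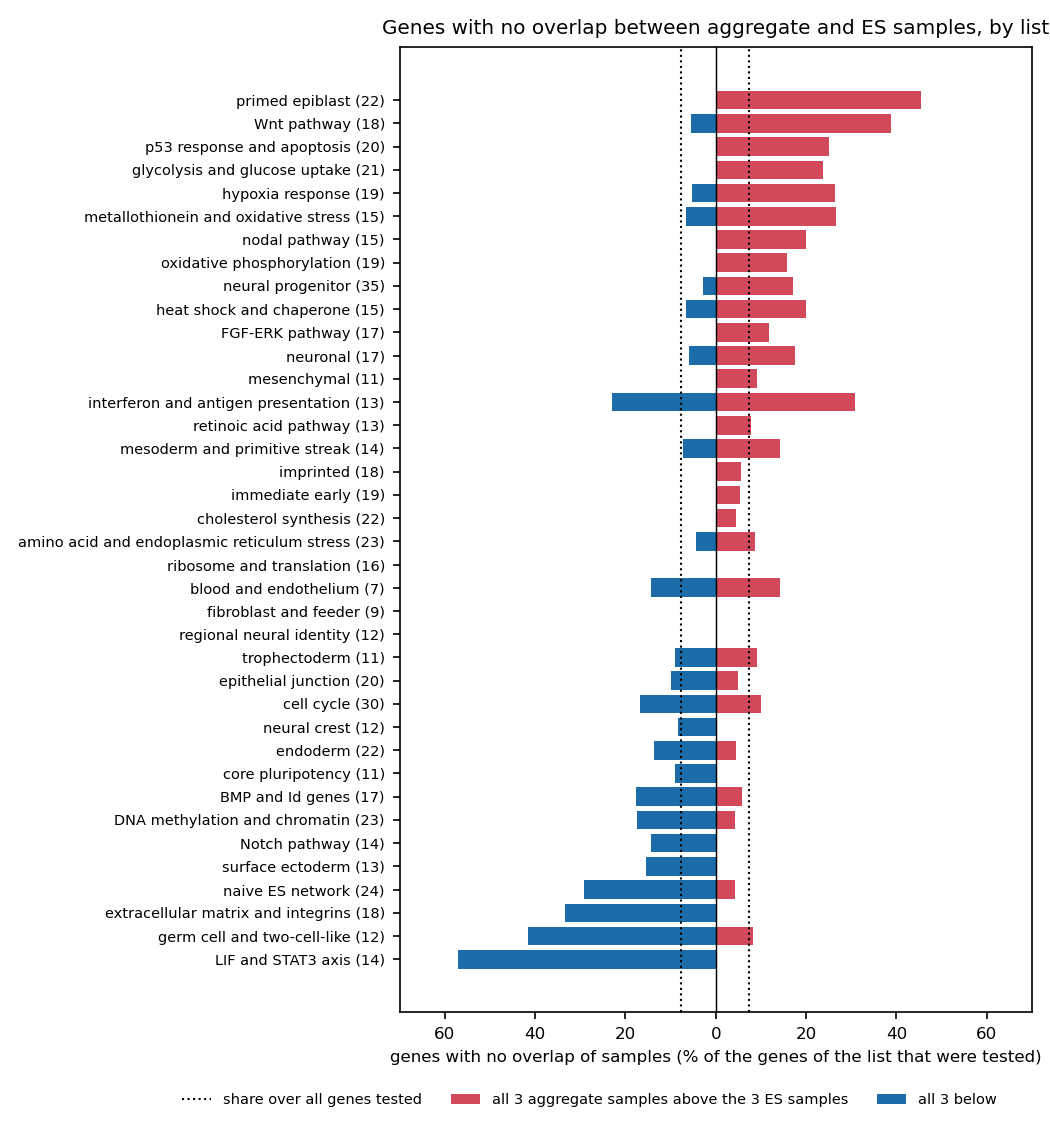
Share of the tested genes of each of 38 lists (number tested in brackets) for which all 3 aggregate samples lie above (red, to the right) or below (blue, to the left) all 3 ES samples, with dotted lines at the shares over all genes tested (7.39% and 7.73%). The LIF and STAT3, germ cell, matrix and naive lists reach farthest to the left, and the primed epiblast and Wnt lists farthest to the right; no share was tested.

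Sox1-positive cells of days 3 to 5 (3 samples) were then compared with the same aggregate samples, to show which of the named genes differ between the 2 kinds of aggregate cell. The aggregate samples serve in both comparisons, so the values are given side by side and their likeness is not read. Limma called 2227 of 25690 probe sets (8.67%) and 1321 of 12941 genes (10.2%) here, against 15 and 5 between aggregate and ES cells. The number of genes lay between 592 and 1089 with 1 sample left out (774 without day 1, 592 without day 2, 786 without day 3 Sox1-negative, 662 without day 4 and 748 without day 5). Core pluripotency genes were called lower in Sox1-positive cells in 6 of 11, with a median of -2.07, and naive genes in 18 of 24, with -2.25. For the LIF and STAT3 list it was 1 of 14 with -0.29, against -0.46 between aggregate and ES cells.

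Klf5 fell in both comparisons, by -1.49 and then by -1.89 on the log2 scale (limma adjusted p 0.00275), and Irak3 by -2.91 and then by -1.17 (0.0184). Mras, Alpk3 and Mapt were not called between the 2 kinds of aggregate cell (-0.22, 0.34 and 0.12, adjusted p 0.566, 0.536 and 0.893), where all had low signals. Nnat rose further by 2.76 (0.00161) and Igfbp4 by 1.60 (0.00935). Capn3, Mt1 and Mt2 were lower in Sox1-positive cells than in aggregates, with called changes of -2.40 (0.00199), -1.87 (0.0192) and -2.11 (0.012). They were picked for high values in these same aggregate samples, which favours such a difference, and Capn3 met the filter only through them. Sox1-positive minus ES cells was -1.04 (limma adjusted p 0.0352), 0.21 (0.779) and -1.09 (0.103). Ddah1 and Hs3st3b1, low in the aggregates, were called higher in Sox1-positive cells, with 1.55 (0.0192) and 4.36 (0.00412). Both were named for low values in these same aggregate samples, which favours such a difference. Sox1-positive minus ES cells was -0.53 (limma adjusted p 0.27) for Ddah1 and 2.34 (0.0015) for Hs3st3b1. Lefty1 and Lefty2 had -2.25 (0.302) and -2.70 (0.26), with signals that went from 36270 on day 3 to 1157 on day 5 for Lefty1.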

How the data were processed

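As deposited, each array gave linear intensities that the authors had scaled to 2% trimmed means of 500.1 to 500.3. How they corrected background, and with which software, is not given in the sources used here. Control probe sets (198 of 36899) were left out. Probe sets with a mean over the 10 samples at or above their chip's 30th percentile (78.6, 117 and 102) were tested as log2 of the intensity plus 16, which understates changes of dim probe sets, with limma 3.58.1 (lmFit and eBayes, two-sided, R 4.3.3) per chip, with p-values adjusted by Benjamini-Hochberg across all 3. An adjusted p under 0.05 was called. This code was tested on simulated data. The platform tables gave 1 gene for 29131 probe sets, several for 724 and none for 6846, under RefSeq symbols of GRCm38.p6 matched by Entrez ID. Members, 38 gene lists (561 genes tested) and naming rules were chosen with earlier results of these data known. Named were Sox1, Cdh1, Pou5f1 and Nanog, the 15 largest rises and falls called without overlap, with places left filled at an unadjusted p under 0.01, and up to 2 each way called per list. Other genes, including all other list members, the Bcl3, Mapt, Rasgrp2, Igfbp4 and Capn3 probe sets and Gjb5, were chosen after their values were seen. Figures were drawn with matplotlib 3.10.9.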

Additional observations from a re-analysis of the deposited data

How the results depend on the processing

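Counts of called probe sets between aggregate and ES cells (15, with 3 higher and 12 lower, and 5 genes) depended on most choices. They were 10, 0, 10 and 3 with quantile normalization, and 15, 3, 12 and 5 with scaling to the 75th percentile. A pseudocount of 1 gave 11, 2, 9 and 3, and one of 64 gave 37, 9, 28 and 16. No filter gave 10, 0, 10 and 5, and one at the 60th percentile 35, 12, 23 and 20. A mean-variance trend gave 48, 13, 35 and 24, and adjustment within each chip 29, 9, 20 and 11. The fit of all 8 groups gave 7, 0, 7 and 2, day as a covariate 13, 1, 12 and 5, and averaging each gene's probe sets 4 genes. When 1 sample was left out, the counts lay between 4 and 58 probe sets, 0 and 21 higher, 4 and 37 lower, and 1 and 28 genes. Between Sox1-positive and aggregate cells 1321 genes became 592 to 1089 with 1 sample left out.

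The sign turned for Cdh1 (0.0082 with quantile normalization, 0.023 with scaling to the 75th percentile, 0.17 without ES 1 and 0.04 without day 1), Pou5f1 (-0.15 without day 2 and -0.19 with its probe sets averaged) and Nanog (0.15 without ES 1). With 1 sample left out they ranged from -0.16 to 0.17, -0.15 to 0.26 and -0.35 to 0.15. No other named gene or called probe set changed direction. List medians stayed between 0.48 and 0.83 for the primed epiblast, -0.60 and -0.43 for LIF and STAT3, -0.43 and -0.20 for the naive network and -0.52 and -0.27 for matrix genes over the alternatives. Medians near 0 turned sign over the alternatives: core pluripotency ran from -0.14 to 0.058, mesoderm from -0.20 to 0.29, endoderm from -0.82 to 0.05, nodal genes from -0.16 to 0.063 and the p53 response from -0.085 to 0.20, so none of these has a direction. Without ES 3, the sample with the highest actin ratio, the first 4 lists had 0.60, -0.46, -0.43 and -0.34. No paired analysis was possible because the aggregate samples carry no replicate numbers. Signals near the filter are the least certain, since the pseudocount sets the size of their changes.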

Other observations

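A few genes of immunity and chromatin, described nowhere above, also had no overlap between aggregate and ES cells without being called. Irf1, an interferon-response factor, had 436, 450 and 581 in ES cells and 765, 825 and 891 in the aggregate samples, a log2 difference of 0.75 ± 0.19 (limma adjusted p 0.299), while Irf9 had -0.56 (0.534). Of 13 interferon and antigen presentation genes, 4 lay above (30.8%) and 3 below (23.1%). Setdb1, a histone H3 methyltransferase, had 1785, 2205 and 2404 against 1225, 1374 and 923 (-0.86, 0.291). Tet2, which oxidises methylated cytosine, had 1212, 1345 and 1571 against 941, 782 and 614 (-0.82, 0.342), opposite in sign to Dnmt3a. Of 23 genes of DNA methylation and chromatin, 1 lay above (4.35%) and 4 below (17.4%).

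Of 20 genes of the p53 response and apoptosis, 5 lay above (25%) and 0 below. Btg2, an antiproliferative gene, had 1058, 1444 and 1487 in ES cells and 2224, 1768 and 1869 in the aggregate samples (0.56, 0.468), and Pmaip1, the gene of the death protein Noxa, had 0.57 (0.525). The list median was 0.03, with 0.30 in the day 1 sample.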
